A study of Mus musculus with 36 samples.

Results

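The 5 transcripts of the period proteins (Per1, Per2, Per3) and the cryptochromes (Cry1, Cry2) were followed over the day in mouse liver. They were picked by symbol, each was listed on 1 row, and they are 5 of the 24066 symbols analysed. All 5 were above 0 FPKM (fragments mapped to a transcript, scaled to its length and to the size of the library) in each of the 36 libraries, and all 5 passed the filter on low values, which asked for a mean of 0.1 FPKM or more and left 13215 genes. The animals were male wild-type C57BL/6JRj mice, 16 weeks old, kept under 12 h of light and 12 h of dark with food at all times. Zeitgeber time 0 (ZT0) is lights on. For 4 weeks, the intermittent hypoxia (IH) mice breathed gas that cycled 60 times per h between 5% and 21% oxygen from ZT0 to ZT8 each day, which is the rest phase of a nocturnal animal and models the repeated desaturations of sleep apnea. The control mice received air cycles in their place. Polyadenylated RNA of the whole liver was sequenced from 3 mice per condition at ZT0, ZT4, ZT8, ZT12, ZT16 and ZT20, 18 libraries per condition. In whole tissue, fewer cells of a type and less RNA per cell cannot be told apart.

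The mammalian clock is a feedback loop. The transcription factors CLOCK and BMAL1 (the product of Arntl) bind E-box elements and switch on the Per and Cry genes, and the PER and CRY proteins form complexes that return to the nucleus and shut CLOCK and BMAL1 down, until casein kinases and ubiquitin ligases have cleared them. PER1 and PER2 are the scaffolds of these complexes and their genes also respond to hormonal and cAMP signals, PER3 is an accessory member, and CRY1 and CRY2 are the repressors proper, with CRY1 appearing last. In liver, CRY proteins also restrain glucagon and glucocorticoid signalling to glucose production.

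The genes lie on 5 chromosomes in mm10. Per1 (GENCODE coordinates) is at chr11:69095217-69109960 on the plus strand. The other 4 are on minus strands, with Per2 at chr1:91415982-91459324, Per3 at chr4:151003652-151044665, Cry1 at chr10:85131700-85185064 and Cry2 at chr2:92403646-92434043. Per3 overlaps Camta1 on the same strand, and Cry2 overlaps the antisense transcript D930015M05Rik. The library kit keeps the strand, but whether the counting used it is not given in the sources used here, so the reads of these overlaps may be shared.

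RefSeq promoter windows (GRCm38.p6, the mm10 assembly, 250 bases before to 50 bases after an annotated start) were held for 4 of the 5 genes, with 2 windows for Per1 and none for Per2. They are shown for the elements that clock factors read, which differ between these windows. Whether these elements bear on the timing of the genes was not tested. Capitals mark the E-box CACGTG, its variant CACGTT (which lies on the opposite strand in both windows that hold it) and the D-box TTATGTAA, the element of the PAR bZIP factors DBP, TEF and HLF. Each is written 5′ to 3′ on the strand of the gene. They cover chr11:69098699-69098998 for Per1 (plus strand, the upstream of its 2 windows) and, on the minus strand, chr4:151044616-151044915 for Per3, chr10:85185005-85185304 for Cry1 and chr2:92434020-92434319 for Cry2.
Per1: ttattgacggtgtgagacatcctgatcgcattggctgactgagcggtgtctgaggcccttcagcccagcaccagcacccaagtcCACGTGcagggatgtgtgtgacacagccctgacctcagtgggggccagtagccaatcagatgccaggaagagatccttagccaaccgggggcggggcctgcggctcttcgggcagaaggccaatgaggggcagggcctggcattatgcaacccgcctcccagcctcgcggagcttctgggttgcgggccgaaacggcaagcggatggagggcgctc
Per3: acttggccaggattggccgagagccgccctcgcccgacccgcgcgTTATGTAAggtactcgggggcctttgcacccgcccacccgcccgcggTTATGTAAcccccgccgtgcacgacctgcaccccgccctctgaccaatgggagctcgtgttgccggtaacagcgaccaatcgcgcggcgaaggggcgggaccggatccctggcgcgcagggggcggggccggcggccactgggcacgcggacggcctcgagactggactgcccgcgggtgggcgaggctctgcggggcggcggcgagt
Cry1: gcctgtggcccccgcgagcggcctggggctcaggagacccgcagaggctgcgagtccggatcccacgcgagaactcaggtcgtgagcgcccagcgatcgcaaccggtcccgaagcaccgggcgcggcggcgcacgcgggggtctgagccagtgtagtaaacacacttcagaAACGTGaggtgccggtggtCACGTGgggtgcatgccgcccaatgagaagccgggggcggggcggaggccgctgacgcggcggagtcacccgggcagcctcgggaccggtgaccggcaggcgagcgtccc
Cry2: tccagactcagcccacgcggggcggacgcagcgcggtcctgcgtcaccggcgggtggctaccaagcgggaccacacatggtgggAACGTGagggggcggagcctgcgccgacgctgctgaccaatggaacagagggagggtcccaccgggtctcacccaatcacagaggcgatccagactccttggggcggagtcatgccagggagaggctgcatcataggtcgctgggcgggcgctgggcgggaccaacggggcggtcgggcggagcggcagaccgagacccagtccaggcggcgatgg

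The E-box CACGTG, searched on both strands, was found 166 bases before the start of Per1 and 60 bases before that of Cry1, and 7.15% of all 32851 mouse promoter windows hold one. The variant CACGTT was found 79 bases before the start of Cry1 and 166 bases before that of Cry2, against 4.68% of windows. The Per3 window held neither. It held the D-box TTATGTAA at 205 and 158 bases before the start, an element present in 0.938% of windows and present 2 or more times in 7 of them. The variant D-box TTACGTAA and the full cAMP response element TGACGTCA were in none of the 5 windows and are in 0.119% and 1.79% of all windows. The shorter element TGACG was in 4 of the 5 windows (20.8% of all), the 5-base core ACGTG of hypoxia response elements, which lies inside each E-box and variant above, in 3 of 5 (19.6%), and the REV-ERB and ROR core site AGGTCA in the upstream Per1 window only (16.3%). These are matches of letters in one window per start, and no binding was measured.

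The tissue carried the RNA of hepatocytes, with 5 of 5 hepatocyte markers (Alb, Apoa1, Ttr, Serpina1c, Cyp2e1) detected and a summed level of 43850 to 69230 FPKM in control and 44060 to 62070 FPKM in IH. This sum was higher in IH without overlap at ZT4 (control 49410 to 51960, IH 58440 to 62070) and ZT8 (43850 to 57740 and 58860 to 60790). It was also higher at ZT20 (52640 to 56260 and 56950 to 58580), and lower in IH at ZT12 (60250 to 69230 and 54770 to 59100). Whether this bears on the levels below was not tested. Library sums ran from 540095 to 579428 FPKM except in control ZT12 replicate 2 (758113 FPKM). That library also had the highest summed leukocyte markers (Ptprc, Cd3e, Cd79a, S100a8; 107.9 FPKM, control median 1.589, highest in IH 6.971). S100a8 alone stood at 106.28 FPKM there, so Ptprc, Cd3e and Cd79a added little to that sum. The Kupffer cell markers (Clec4f, Cd5l, Adgre1, Vsig4) were also highest in that library (121.0 FPKM, control median 33.04). Its acute phase transcripts (Saa1, Saa2, Orm2) summed to 36200 FPKM, against a control median of 162.9 and a highest IH value of 48820. Summed endothelial, stellate and bile duct markers spanned overlapping ranges in both conditions, and 2 of 3 erythroid markers were not listed on 1 row. In this library Per1, Per2, Per3 and Cry2 stood at 54.8%, 44.8%, 51.6% and 64.1% of the mean of the other 2 control mice at ZT12, and Cry1 at 101.4%, so the differences at ZT12 are given with and without it below. Acute phase transcripts were also high in control ZT4 replicates 1 and 3 (4388 and 4235 FPKM, against 94.29 FPKM in replicate 2 and 53.63 to 118.0 FPKM in the IH mice at ZT4), in control ZT16 replicate 3 (26800 FPKM) and in IH ZT0 replicate 2 (the 48820 FPKM above). Further high values were 4091 FPKM in IH ZT12 replicate 2, 3811 in control ZT20 replicate 1 and 1787 in control ZT0 replicate 3. Control ZT8 replicate 1 had 1394 FPKM, against 40.17 to 87.69 FPKM in the IH mice at ZT8. Leukocyte markers at ZT4 were 1.912 to 3.82 FPKM in control and 1.065 to 3.17 FPKM in IH. Whether the state of these animals set the levels below was not tested.

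All 5 repressor transcripts cycled in both conditions. A 24-h cosine on log2(FPKM + 1) passed the nominal P of 0.01 that the study used for rhythms in 5 of 5 in control and 5 of 5 in IH (limma F test), whereas 20.0% of the 13215 genes passed in control, 39.9% in IH and 15.5% in both. P in control ran from 3.7e-10 for Cry1 to 0.0034 for Cry2, and in IH from 1.3e-11 for Cry1 to 0.0025 for Per1. The Cry2 rhythm in control was the weakest of these. In the same limma F test it missed the threshold without control ZT0 replicate 2, where P was 0.0131, and without control ZT0 replicate 3, where P was 0.013. It also missed it with the control libraries rescaled to a common sum, where P was 0.0447.

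Mean levels over the 36 libraries were close to each other for 4 of the 5, at 8.25 FPKM for Cry2, 7.98 for Cry1, 7.78 for Per1 and 6.42 for Per2, and lower for Per3 at 2.61 FPKM. Per3 was above 42.0% of the genes tested and Cry2 above 66.6%. By the ratio of time point means, Per3, the lowest, had the largest daily swing, and Cry2, the highest, the smallest. The highest time point exceeded the lowest 19.4-fold in control and 53.6-fold in IH for Per3, and 1.90-fold and 3.21-fold for Cry2. The Per3 ratios rest on low ZT0 means of 0.256 and 0.158 FPKM. By the fitted amplitude on log2(FPKM + 1), Per1 was largest in control (1.22 ± 0.18, Per3 1.19 ± 0.13). In IH it was Per2 (1.37 ± 0.11, Per3 1.28 ± 0.15, SE).

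**Figure D1:**
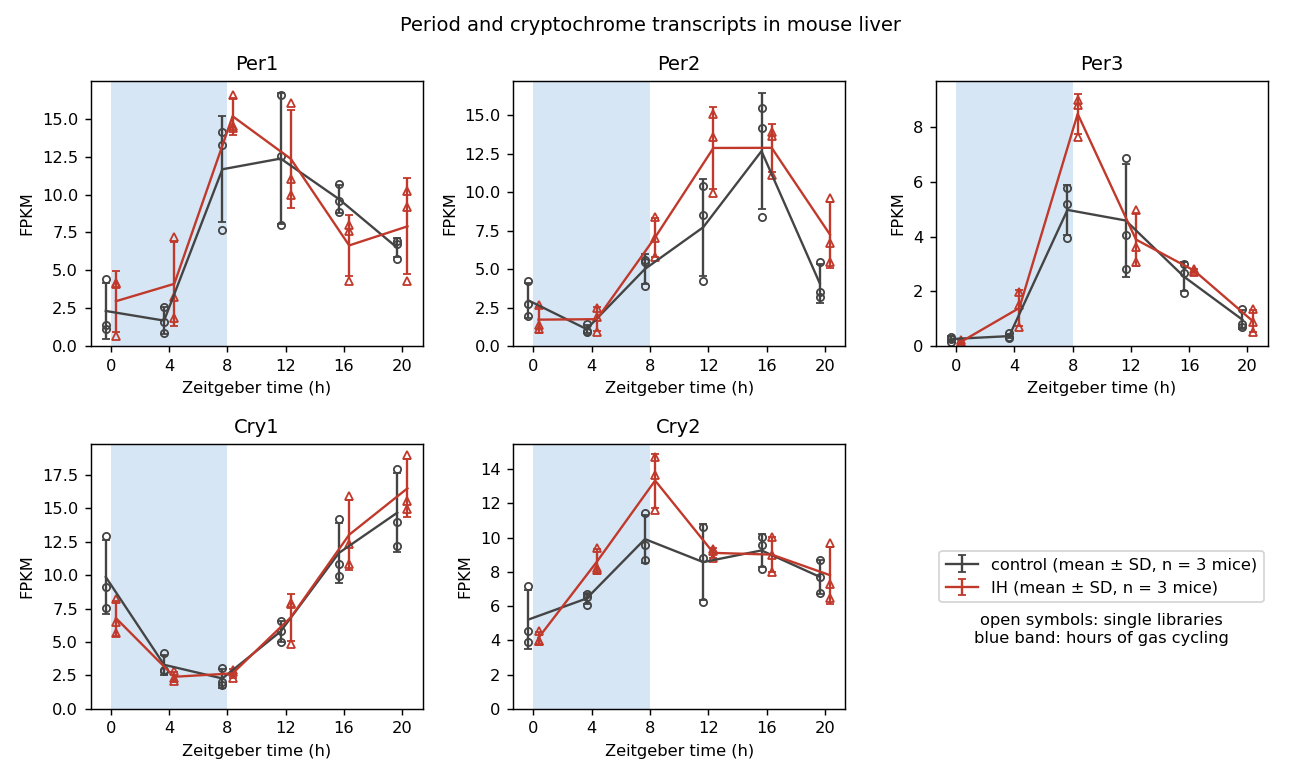
FPKM of Per1, Per2, Per3, Cry1 and Cry2 against zeitgeber time (h) in control (grey circles) and IH (red triangles). Open symbols are single libraries, lines join the means of 3 mice with the SD, and the blue band marks the hours of gas cycling. Per3 and Cry2 in IH lie above control at ZT4 and ZT8 without overlap, and Cry1 is highest at ZT20, when the others are past their peaks.

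Per1 codes for a period protein whose gene responds fast to glucocorticoid and cAMP signals. In control it was lowest at ZT4 (0.846, 1.60 and 2.60 FPKM in the 3 mice), and highest at ZT12 (12.6, 7.98 and 16.6 FPKM), a 7.36-fold difference of means. In IH it was lowest at ZT0 (0.643, 4.18 and 4.07 FPKM) and highest at ZT8 (14.4, 16.6 and 14.5 FPKM), 5.12-fold apart. Mice varied widely at the low time points, with 1 of the 3 IH mice at ZT0 far below the other two, and neighbours in the order of time points overlapped at each step in IH. At ZT8, all 3 IH mice were above the 3 control mice (7.65, 13.3 and 14.1 FPKM), and at ZT16 all 3 IH mice (4.31, 8.01 and 7.62 FPKM) were below the 3 control mice (8.83, 9.57 and 10.7 FPKM). At ZT4 the means stood at 4.11 ± 2.76 FPKM in IH and 1.68 ± 0.88 in control (SD, n = 3), a 2.44-fold ratio with overlapping values.

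Per2, the main scaffold of the repressor complex, peaked last of the period genes. In control it was lowest at ZT4 (0.907, 0.977 and 1.42 FPKM) and highest at ZT16 (14.2, 15.4 and 8.37 FPKM), 11.5-fold apart. In IH it was lowest at ZT0 (2.68, 1.09 and 1.38 FPKM), and ZT12 (9.92, 15.1 and 13.6 FPKM) stood level with ZT16 (13.9, 11.1 and 13.6 FPKM). The IH mean was 0.578 times the control mean at ZT0 and higher than control on the flanks of the peak. At ZT12 control had 8.51, 4.24 and 10.4 FPKM, so the IH mean was 1.67 times the control mean with 1 IH mouse inside the control range, and 1.36 times without control ZT12 replicate 2. At ZT20 IH had 6.68, 9.60 and 5.43 FPKM and control 3.20, 5.49 and 3.52 FPKM, a 1.78-fold ratio with an overlap of 1 mouse on each side. Only at ZT8 did the groups separate, with IH at 5.79, 7.03 and 8.36 FPKM and control at 3.92, 5.48 and 5.62 FPKM.

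Relative to its low point, Per3 showed the steepest daytime rise. At ZT0 it was close to absent in both conditions, with 0.271, 0.344 and 0.154 FPKM in control and 0.140, 0.101 and 0.234 FPKM in IH. At ZT4, control still had 0.321, 0.310 and 0.464 FPKM while IH had reached 0.691, 1.51 and 1.98 FPKM, so that every IH mouse was above every control mouse and the means differed 3.82-fold. The same separation held at ZT8, the end of the daily gas cycling. Control then had 3.96, 5.21 and 5.77 FPKM and IH 8.82, 9.01 and 7.64 FPKM, a 1.71-fold ratio. From ZT12 on the conditions overlapped. Control had 6.87, 2.82 and 4.08 FPKM at ZT12 and IH 4.98, 3.07 and 3.64 FPKM. At ZT16 the means were 2.53 ± 0.53 FPKM in control and 2.76 ± 0.06 in IH, and at ZT20 0.967 ± 0.352 and 0.919 ± 0.410 (SD, n = 3).

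Cry1, the late repressor, was highest at ZT20 in both conditions, with 12.2, 17.9 and 13.9 FPKM in control and 15.6, 19.0 and 15.0 FPKM in IH. It was lowest at ZT8 in control (1.77, 1.98 and 3.07 FPKM) and at ZT4 in IH (2.80, 2.07 and 2.32 FPKM), 6.47-fold and 6.88-fold below the peak. The values at ZT4 and ZT8 overlapped within each condition. On the falling limb IH was lower. At ZT0 control had 12.9, 9.14 and 7.52 FPKM and IH 5.64, 6.50 and 8.21 FPKM, which overlapped by 1 mouse on each side, and at ZT4 control had 2.91, 4.14 and 2.83 FPKM, all above the 3 IH mice. From ZT8 to ZT20 the IH mean was 1.12 to 1.18 times the control mean, with overlap at each time point.

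Cry2, the other cryptochrome, had the shallowest rhythm. At ZT0 control had 7.15, 3.92 and 4.56 FPKM and IH 3.94, 3.96 and 4.54 FPKM. At ZT4 control had 6.72, 6.54 and 6.06 FPKM and IH 8.24, 8.10 and 9.41 FPKM, and at ZT8 control had 8.71, 9.58 and 11.4 FPKM and IH 14.7, 13.7 and 11.6 FPKM. Every IH mouse was thus above every control mouse at both daytime points, 1.33-fold and 1.35-fold in the means, the ZT8 groups by a narrow margin. At the remaining time points the conditions overlapped. The IH mean was 1.06 times the control mean at ZT12 (0.936 times without control ZT12 replicate 2, so the direction turned), 0.974 times at ZT16 and 1.01 times at ZT20.

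Counted over the 5 genes, values of the 3 IH and 3 control mice did not overlap for 3 genes at ZT4 (Per3 and Cry2 higher, Cry1 lower in IH), 4 at ZT8 (Per1, Per2, Per3 and Cry2 higher) and 1 at ZT16 (Per1 lower). None was separated at ZT0, ZT12 or ZT20. Of all genes, 34.5% were separated in either direction at ZT4, 18.1% at ZT8, 13.8% at ZT16, 10.8% at ZT0, 13.1% at ZT12 and 16.0% at ZT20.

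At single time points none of the 5 genes passed the test of IH against control (limma contrast on log2(FPKM + 1) in the fit of the 12 groups, Benjamini-Hochberg adjusted p under 0.05 over 13215 genes). Per3 at ZT4 came closest, at 0.77 ± 0.21 (SE) on the log2 scale with an adjusted p of 0.0553, and it fell on either side of the threshold under other settings (adjusted p = 0.0182 with a pseudocount of 0.1, 0.12 with libraries rescaled to a common sum, and 0.0184 without control ZT12 replicate 2). The share of all genes that passed was 1.16% at ZT4, 0.772% at ZT12, 0.00757% at ZT8, 0.00757% at ZT16, 0% at ZT0 and 0% at ZT20. Without adjustment, p was under 0.05 for Cry1 at ZT0 (-0.46 ± 0.20), for Per1 (0.85 ± 0.41), Per3 and Cry2 (0.36 ± 0.16) at ZT4, for Per3 (0.68 ± 0.21) and Cry2 (0.39 ± 0.16) at ZT8, for Per2 at ZT12 (0.72 ± 0.28) and for Per2 at ZT20 (0.70 ± 0.28). The Per2 difference at ZT12 was 0.39 ± 0.29 without control ZT12 replicate 2, with an adjusted p of 0.561 against 0.125 with it, and it passed without control ZT12 replicate 3 (adjusted p = 0.0259). With and without control ZT12 replicate 2, the other differences at ZT12 were 0.02 and -0.24 for Per1, -0.15 and -0.39 for Per3, 0.19 and 0.20 for Cry1, and 0.11 and -0.08 for Cry2, none of which passed. Over all time points the 5 differences ran from -0.02 ± 0.08 for Cry1 to 0.28 ± 0.12 for Per2 (adjusted p from 0.323 to 0.934), and 0 of 5 passed against 0.651% of all genes.

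**Figure D2:**
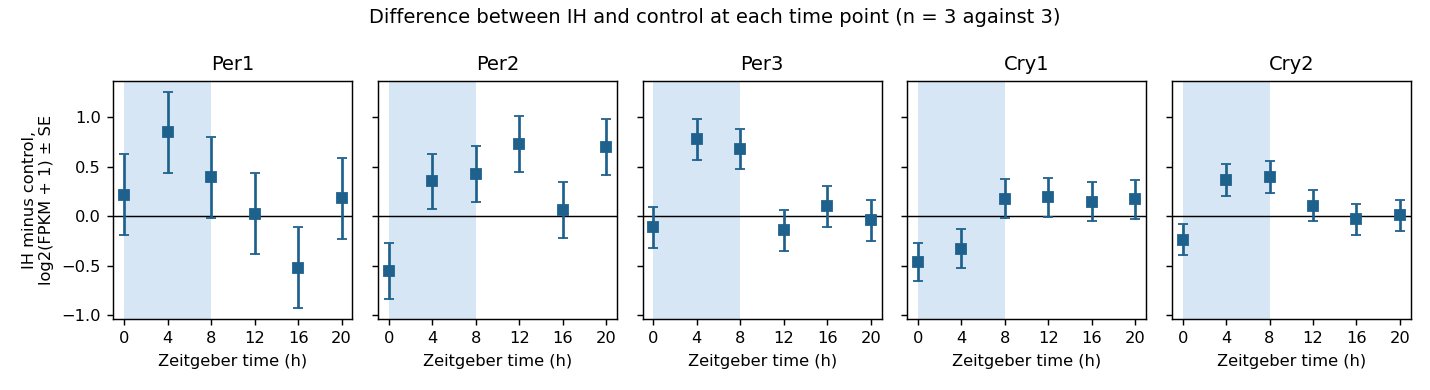
Difference between IH and control in log2(FPKM + 1) at each zeitgeber time (h), with the SE of the limma fit, 3 against 3 mice. The blue band marks the hours of gas cycling. Per3 is high at ZT4 (0.77) and ZT8 (0.68), Cry2 at the same times (0.36 and 0.39), and Cry1 is negative at ZT0 (-0.46) and ZT4 (-0.33).

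ZT4 and ZT8, the time points within and at the end of the daily hypoxia that the study compared, were also put in 1 fit of 12 libraries with the time point as a factor. This fit was added after the values above were known, among them the separations at ZT4 and ZT8, so its p-values are not independent of those counts, and it leaves out ZT0, where Per3 (-0.12 ± 0.21) and Cry2 (-0.24 ± 0.16) were not higher in IH. Per3 rose in IH by 0.72 ± 0.12 on the log2 scale (adjusted p = 0.0122) and Cry2 by 0.38 ± 0.07 (adjusted p = 0.0155), higher in 6 of 6 IH mice than in any control mouse of the same time point. Per1 stood at 0.62 ± 0.25 (adjusted p = 0.136), Per2 at 0.39 ± 0.14 (adjusted p = 0.110) and Cry1 at -0.08 ± 0.13 (adjusted p = 0.735), and these 3 did not pass. Thus 2 of 5 passed, both higher in IH, where 7.98% of all genes passed in either direction and 6.05% as higher in IH. Leaving out each of the 12 libraries in turn gave 0.64 to 0.82 for Per3 and 0.34 to 0.42 for Cry2, with adjusted p of 0.0424 or less throughout. Control ZT8 replicate 1, with acute phase transcripts at 1394 FPKM, was among these and was kept in the fit that follows. Without both control ZT4 mice with high acute phase transcripts, the differences were 0.73 for Per3 and 0.38 for Cry2, and the calls were lost over the 10 libraries left (adjusted p = 0.0851 and 0.0981).

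The point estimates of the 5 fitted maxima fell in one order, apart from Per3 and Cry2. A fitted maximum can differ from the highest sampled time, which was ZT8 for Per3 and Cry2 in both conditions and for Per1 in IH. Without control ZT12 replicate 2, the control mean of Per3 was higher at ZT12 (5.47 FPKM) than at ZT8 (4.98 FPKM). In control the fitted maximum fell at ZT11.8 ± 0.40 h (SE) for Per3, ZT12.4 ± 0.96 h for Cry2, ZT13.2 ± 0.56 h for Per1, ZT14.6 ± 0.52 h for Per2 and ZT19.1 ± 0.29 h for Cry1. In IH it fell at ZT10.5 ± 0.78 h for Cry2, ZT10.6 ± 0.44 h for Per3, ZT11.7 ± 0.92 h for Per1, ZT14.0 ± 0.32 h for Per2 and ZT18.1 ± 0.23 h for Cry1. The gaps between Per3, Cry2 and Per1 were within 2 SE in both conditions, that from Per1 to Per2 was 1.39 ± 0.76 h in control and 2.32 ± 0.98 h in IH, and Cry1 followed Per2 by 4.52 ± 0.59 h in control and 4.10 ± 0.39 h in IH. The maxima of Cry1 and the earliest gene were 7.35 ± 0.50 h apart in control and 7.62 ± 0.81 h in IH.

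The fitted maximum was earlier in IH for each of the 5 genes, and the test of this difference passed for none. The difference was -1.94 ± 1.24 h for Cry2, -1.53 ± 1.08 h for Per1, -1.22 ± 0.59 h for Per3, -1.01 ± 0.36 h for Cry1 and -0.60 ± 0.61 h for Per2. Only for Cry1 did the unadjusted 95% interval leave out 0 (-1.78 to -0.24 h). Those of Per3 (-2.47 to 0.03 h), Per2 (-1.87 to 0.68 h), Per1 (-3.80 to 0.74 h) and Cry2 (-4.53 to 0.66 h) did not. In the test of the phase difference over all genes (the part of the condition by rhythm interaction at right angles to the shared rhythm), P was 0.0103 for Cry1, 0.0574 for Per3, 0.144 for Cry2, 0.167 for Per1 and 0.332 for Per2, and the adjusted p ran from 0.886 to 0.955. This test called 0% of the 13215 genes, with 710 of them at an unadjusted p under 0.05. An earlier maximum in IH was common. Among the 2047 genes that cycled in both conditions, 71.1% had one and the median difference was -0.65 h. The 5 genes kept an earlier maximum without any one of the 36 libraries, at -1.15 to -0.78 h for Cry1 and -2.50 to -1.54 h for Cry2, and Per2 was nearest to 0 without control ZT12 replicate 2 (-0.35 h).

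**Figure D3:**
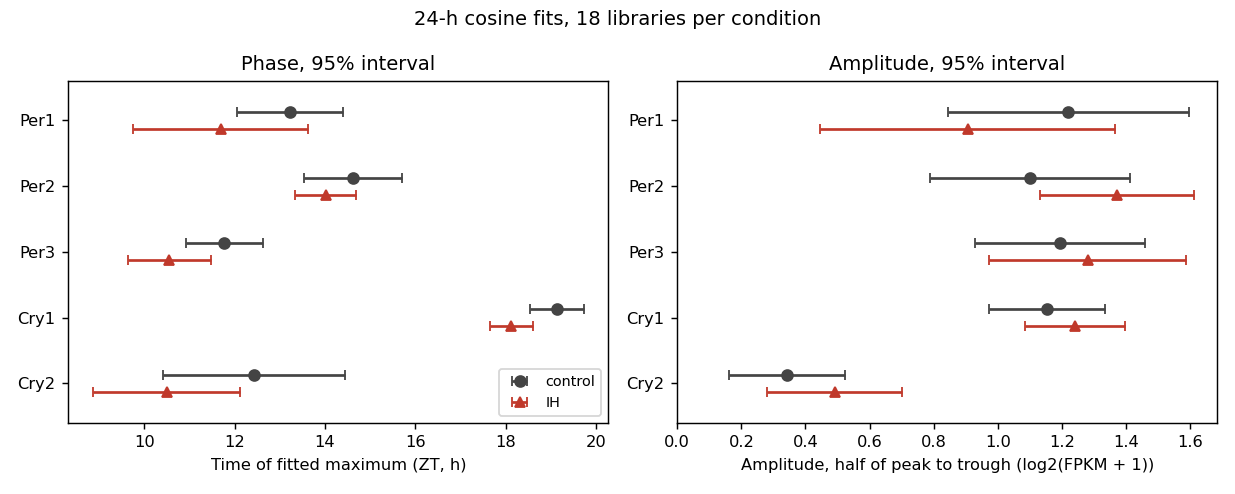
Time of the fitted maximum (ZT, h; left) and amplitude (log2(FPKM + 1); right) of the 24-h cosine for each gene in control (grey circles) and IH (red triangles), with 95% intervals, 18 libraries per condition. Each red symbol on the left lies before its grey one, and the intervals of Cry1 (18.5 to 19.7 h in control, 17.6 to 18.6 h in IH) overlap least.

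Amplitudes, taken from the mean to the peak on the log2(FPKM + 1) scale, were 1.19 ± 0.13 in control and 1.28 ± 0.15 in IH for Per3, 1.15 ± 0.09 and 1.24 ± 0.07 for Cry1, 1.10 ± 0.15 and 1.37 ± 0.11 for Per2, 0.34 ± 0.09 and 0.49 ± 0.10 for Cry2, and 1.22 ± 0.18 and 0.91 ± 0.22 for Per1 (SE). Those of 4 genes were thus larger and that of Per1 smaller in IH, and the test passed for none. The intervals of the difference along the shared rhythm were -0.92 to 0.28 for Per1, -0.13 to 0.67 for Per2, -0.32 to 0.49 for Per3, -0.15 to 0.32 for Cry1 and -0.12 to 0.43 for Cry2 (adjusted p from 0.913 to 0.968). It called 0% of all genes, with 664 at an unadjusted p under 0.05. The joint limma F test of any change of the cosine also called 0%, with 649 genes at an unadjusted p under 0.05, and Cry1 was the one member among them, where P was 0.0281. Control ZT12 replicate 2 weighed on these values. Without it the log2 ratio of IH to control amplitude fell from 0.52 to 0.22 for Cry2 and from 0.32 to 0.20 for Per2, and that of Per3 moved from 0.10 to -0.01.

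The pools of period and cryptochrome transcripts changed places during the day. Summed Per1, Per2 and Per3 stood at 3.15 ± 1.23 FPKM at ZT4 in control and 7.25 ± 4.12 in IH, and at 21.7 ± 5.36 and 30.7 ± 1.81 FPKM at ZT8 (SD, n = 3). Summed Cry1 and Cry2 moved less, from 9.74 ± 0.90 FPKM at ZT4 in control and 11.0 ± 0.78 in IH to 22.4 ± 3.67 and 24.3 ± 3.82 FPKM at ZT20. The log2 ratio of the period sum to the cryptochrome sum was therefore below 0 in all 18 libraries of ZT0, ZT4 and ZT20, highest on average at ZT8 (0.81 ± 0.24 in control, 0.95 ± 0.16 in IH) and back near 0 at ZT16 (0.25 ± 0.07 and 0.02 ± 0.11). In control at ZT12 this ratio was 0.84, 0.32 and 1.01. Apart from replicate 2 (0.32), these values were above the control mean at ZT8. At ZT16 the 3 IH mice (0.08, 0.10 and -0.11) were below the 3 control mice (0.33, 0.21 and 0.22), the time at which Per1 was lower in IH. These sums are given without a test.

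Within the cryptochromes the balance swung from Cry1 at night to Cry2 by day. The log2 ratio of Cry2 to Cry1 ran from -0.93 ± 0.26 at ZT0 to 2.16 ± 0.23 at ZT8 in control and from -1.09 ± 0.12 at ZT20 to 2.33 ± 0.32 at ZT8 in IH. At ZT4 it was 1.21, 0.66 and 1.10 in the control mice and 1.55, 1.97 and 2.02 in the IH mice, so that the groups did not overlap. This is where Cry2 was higher and Cry1 lower in IH.

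**Figure D4:**
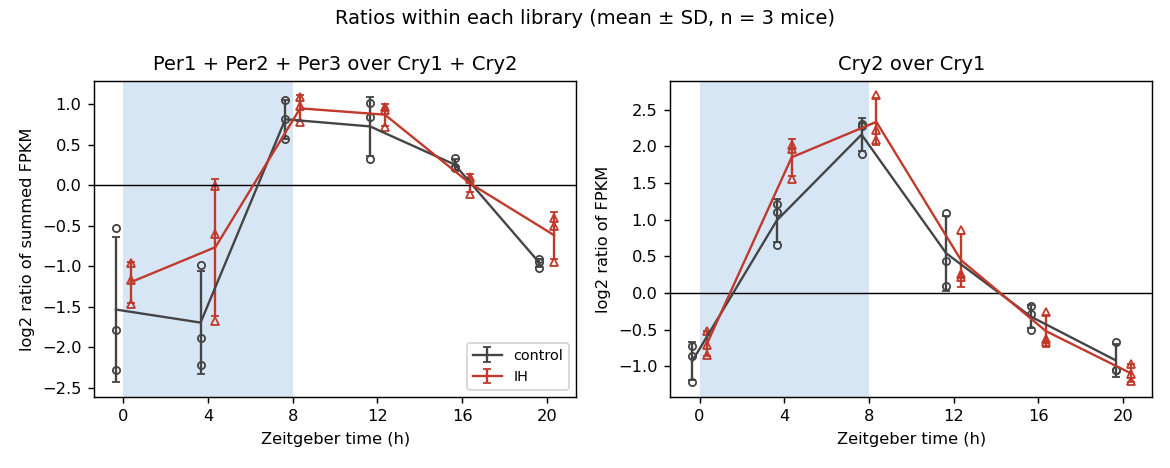
Log2 ratio of summed period to summed cryptochrome FPKM (left) and of Cry2 to Cry1 FPKM (right) in each library against zeitgeber time (h), control in grey and IH in red, with the mean and SD of 3 mice. The blue band marks the hours of gas cycling. The Cry2 to Cry1 ratio at ZT4 is 0.99 in control and 1.85 in IH, with no overlap.

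Across the 36 libraries Cry1 was least like the other members. Per3 went with Cry2 (Pearson r = 0.85 on log2 values) and Per1 (0.82), and Per1 with Per2 (0.72) and Cry2 (0.68). Per2 had r of 0.66 with Per3 and 0.58 with Cry2. Cry1 had r of 0.00 with Per1, 0.40 with Per2, -0.20 with Cry2 and -0.33 with Per3. These libraries share time points and conditions, so r describes the shared daily course. The transcripts most like each member (mean of at least 1 FPKM, highest r over the 36 libraries) were Ciart (0.98), Tef (0.96) and Wee1 (0.96) for Per3, Tef (0.91), Dgat2 (0.86) and Wee1 (0.86) for Cry2, Usp2 (0.89), Coq10b (0.88) and Ndel1 (0.87) for Per1, Plekha8 (0.92), Marveld1 (0.92) and Pdxk (0.92) for Per2, and Lonrf3 (0.92), Celsr1 (0.90) and Cml5 (0.90) for Cry1. Tef, a PAR bZIP factor, and Wee1, a cell cycle kinase, were thus among the nearest to both Per3 and Cry2.

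The genes around the repressors in the loop were read by the same tests. Of the 3 activators (Clock, Arntl, Npas2), 3 cycled in both conditions (15.5% of all genes), and none passed in the ZT4 and ZT8 fit (7.98% of all genes). Arntl, which codes for BMAL1, fell in IH at ZT4 by 0.95 on the log2 scale (adjusted p = 0.028). That call was lost under 8 of 44 alternatives, among them leaving out any 1 of the 3 control ZT4 libraries, IH ZT4 replicate 2 or IH ZT4 replicate 3. Clock stood 0.44 higher at ZT12 (adjusted p = 0.0456), or 0.39 higher without control ZT12 replicate 2 (adjusted p = 0.176), and that call was lost under 29 of 43 alternatives. In the REV-ERB and ROR loop, whose factors compete at the Arntl and Cry1 genes, 4 of the 5 genes tested cycled in both conditions (15.5% of all genes). Nfil3, a D-box repressor, fell by 0.52 (adjusted p = 0.0467) in the ZT4 and ZT8 fit, a call lost under 15 of 19 alternatives.

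Of 9 E-box output genes, which share the activators of the Per genes, 7 cycled in both conditions (15.5% of all genes) and 9 in IH (39.9%). In the ZT4 and ZT8 fit 5 were higher in IH, against 6.05% of all genes. Bhlhe41 (DEC2, a rival repressor at E-boxes) rose by 0.45 (adjusted p = 0.0105), Ciart (a repressor of CLOCK and BMAL1) by 0.83 (adjusted p = 0.0248), Tef by 0.73 (adjusted p = 0.0255) and Hlf by 0.53 (adjusted p = 0.0278). Usp2, a ubiquitin protease, was the fifth, at 0.71 (adjusted p = 0.0374), a call lost under 11 of 19 alternatives. At ZT4 alone 3 of the 9 passed, against 1.16% of all genes. These were Dbp by 2.28 (adjusted p = 0.00992), Bhlhe41 by 0.50 (adjusted p = 0.0111) and Tef by 1.03 (adjusted p = 0.0452). Bhlhe41 also passed over all time points (0.20, adjusted p = 0.0146), against 0.651% of all genes. That last call held under all 41 alternatives run. In the ZT4 and ZT8 fit, the calls were lost under 1 of 18 alternatives for Bhlhe41 and under 7 of 19 each for Ciart, Tef and Hlf, among them leaving out IH ZT4 replicate 2 or control ZT4 replicate 1 for the latter 3, and each of the 4 was lost without both control ZT4 mice with high acute phase transcripts. At ZT4 alone they were lost under 3 of 44 for Dbp, 3 of 43 for Bhlhe41 and 23 of 44 for Tef. The median difference of the 9 in the ZT4 and ZT8 fit was 0.71, that of the 5 repressors 0.39 and that of all genes tested 0.04.

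The machinery that modifies PER and CRY proteins was the largest list. Of 22 partners and enzymes, among them the casein kinases, the ubiquitin ligase subunit Btrc and the phosphatases, 1 (Ppp1ca, a catalytic subunit of protein phosphatase 1) cycled in both conditions, against 15.5% of all genes. In control 2 cycled (9.09%, against 20.0% of all genes) and in IH 11 (50.0%, against 39.9%). Of the 22, 1 passed (4.55%, against 7.98% of all genes) in the ZT4 and ZT8 fit, Wdr5, a chromatin protein found in PER complexes, which rose by 0.18 (adjusted p = 0.0245, lost under 6 of 19 alternatives), and the median difference of the 22 was 0.03. Of 8 readouts of cAMP and glucocorticoid signalling, the hormonal inputs to Per1, 3 cycled in both conditions (15.5% of all genes). Fkbp5, a glucocorticoid target, rose by 0.77 (adjusted p = 0.0495) in the ZT4 and ZT8 fit and by 1.01 (adjusted p = 0.0396) at ZT4. Crem, which codes for cAMP-responsive transcription factors, fell by 0.41 (adjusted p = 0.0421) in the ZT4 and ZT8 fit. In the ZT4 and ZT8 fit these calls were lost under 15 of 19 alternatives for Fkbp5 and 12 of 19 for Crem, and that of Fkbp5 at ZT4 under 10 of 44. Their median was 0.04, as was that of all genes.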

How the data were processed

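Liver RNA-seq of 36 mice was analysed, 3 per condition and time point. The authors aligned stranded, poly(A)-selected paired reads to mm10 with TopHat2 2.1.1 and estimated expression with Cufflinks 2.2.1 as FPKM, the unit of both deposited tables (versions from the submitters' processing notes). The annotation and any scaling between libraries are not given in the sources used here. There are no counts, so the depth of each library and the precision of low values are unknown. Time point and replicate number came from the sample labels. The 2 tables, 1 per condition, share column names, and their condition was taken from the table names and from published profiles that match 1 table each.

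Of 24346 symbols, 280 on more than 1 row were left out. Values were taken as log2(FPKM + 1), which understates changes of low genes, for the 13215 symbols that averaged 0.1 FPKM or more, and fitted in R 4.3.3 with limma 3.58.1 (moderated tests with an intensity trend): a 24-h cosine per condition (nominal P of 0.01, where BIO_CYCLE, the study's tool, was not used here), the interaction of condition and cosine, split into a phase and an amplitude contrast, and IH against control at each time point (Benjamini-Hochberg adjusted p of 0.05 over all genes). The fit of ZT4 and ZT8 together was added after the values were seen. Same-numbered mice of the 2 conditions did not vary together (mean residual r = 0.054, -0.18 to 0.29 over 18 pairs), and each library is 1 mouse.

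The 5 genes and the gene lists were chosen with earlier results of these data known. Genes named are the 5, the 3 most like each, and up to 4 per list and comparison past a threshold; Usp2 was added to complete a count, and a list gene that the rule covers is not reported here. Motifs were sought on both strands of RefSeq windows. The scripts were tested on simulated data. Alternatives were another pseudocount, 2 other filters, 2 scalings, other rhythm tests and spreads, the replicate block, leaving out each library and, added after the values were seen, leaving out control ZT4 replicates 1 and 3 together. Plots came from matplotlib 3.10.9 in Python 3.11.15.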

Additional observations from a re-analysis of the deposited data

How the results depend on the processing

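The 5 rhythms in IH passed under every alternative whose calls were counted, and those in control under all but the 3 that ended the call for Cry2 (4 of 5 called). Calls were not counted for the fit on linear FPKM. No member passed for phase, amplitude or cosine under any alternative in which these were tested. The Per3 and Cry2 calls in the ZT4 and ZT8 fit held under each alternative but 1, added after the data were seen, in which control ZT4 replicates 1 and 3 were left out together (0 members called, Per3 0.73, Cry2 0.38, and 30 of all genes called, against 7 at ZT4 alone). The count of members differing at ZT4 was 0 as reported and 1 with a pseudocount of 0.1, with a mean of at least 1 FPKM, with median of ratios scaling (Per3 each time) and with only the libraries of that time point (Cry2, adjusted p = 0.0452). Leaving out single libraries gave 0 to 1 at ZT4 (Per3, without IH ZT4 replicate 1, control ZT8 replicate 1, control ZT12 replicate 1 or control ZT12 replicate 2) and 0 to 1 at ZT12 (Per2, without control ZT12 replicate 3). The Per3 amplitude contrast ranged from -0.0048 to 0.187 without single libraries, and its log2 amplitude ratio was 0.37 on linear FPKM. With the replicate block, Per2 passed in the ZT4 and ZT8 fit (adjusted p = 0.0232), as it did without IH ZT4 replicate 1 (adjusted p = 0.0392), and no other call on the 5 genes changed. The causes were not tested.

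Counts over all genes moved more. At ZT4, 153 genes passed as reported, 49 with a common sum and 729 with only that time point's libraries. At ZT12, 102 passed as reported, 25 with no filter, 1 with a common sum, 217 with median of ratios, 1 with the replicate block and 0 with only that time point's libraries, and from 0 to 3122 without single libraries (3122 without control ZT12 replicate 3). The common sum moved the median difference of all genes at ZT12 to 0.11. Over all time points 86 passed, 39 with a common sum and 54 with median of ratios, and in the ZT4 and ZT8 fit 1054, or 614 with no filter and 231 to 1342 without single libraries. At ZT0, ZT8, ZT16 and ZT20 between 0 and 10 passed under the same settings (0 to 25 without single libraries), and the cosine and phase tests gave 2 genes each with the spread between replicates alone. Depth is unknown, so the precision of Per3 near ZT0 cannot be given.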
